A study of Homo sapiens with 6 samples.

Results

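MYC and 8 genes whose proteins work in its network were followed across 6 RNA-sequencing libraries of human melanoma cells in which the ETS-family transcription factor ETV1 was knocked down. The 9 genes were MYC, its partner MAX, the MAX-binding repressors MXD1, MXI1, MXD3, MXD4, MNT and MGA, and the related factor TFAP4. They were chosen by gene symbol from 17468 genes in the deposited table, and all 9 were in it. MYC protein works as a pair with MAX, binds E-box DNA and raises transcription of genes for ribosome assembly, nucleotide synthesis, glycolysis and cell division. The MXD proteins, MXI1 and MNT pair with the same MAX and recruit the SIN3 corepressor to E-boxes, and MGA joins MAX in the PRC1.6 repressor complex, so MYC and these proteins share one partner. TFAP4 binds another form of E-box as a pair with itself and is a known MYC target.

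A375 and Colo800 are established melanoma lines, and each was infected with a virus carrying the hairpin ETV1-sh2, the hairpin ETV1-sh1 or a scrambled hairpin. The design text states duplicate infections and RNA taken 4 days later, but the table has a single library for each line and hairpin, and no source used here says if duplicates were pooled in it. The labels' treatment field differs from the design text: it gives ETV1-sh2 as 5 nM trametinib (a MEK inhibitor), ETV1-sh1 as DMSO (the solvent) and scrambled as 1 uM vemurafinib (so spelled there; vemurafenib is a BRAF inhibitor), and the protocol field describes siRNA for 48 h and drug for 8 h. All groups were grown in 10% FBS, and with each labelled drug tied to 1 hairpin, hairpin and drug cannot be told apart in any comparison between hairpins, ETV1-sh2 against ETV1-sh1 included.

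ETV1 itself (ENSG00000006468) checked the hairpin labels. In Colo800 its level was 9.80 FPKM with ETV1-sh2 and 54.6 FPKM with ETV1-sh1, against 180.3 FPKM with scrambled. In A375 it was 3.46 FPKM with ETV1-sh2 and 34.6 FPKM with ETV1-sh1, against 82.8 FPKM with scrambled. FPKM counts fragments relative to transcript length and library size, so levels of different genes can be set side by side. ETV1-sh2 thus left 5.43% and 4.18% of ETV1 RNA in Colo800 and A375, and ETV1-sh1 left 30.3% and 41.8%. SOX10, a lineage factor of melanocytes, stood at 353 to 712 FPKM in all 6 libraries, while the pigment genes MLANA, TYR, DCT and TYRP1 were below 1 FPKM in every A375 library. MITF, another lineage factor, was at 38.4 FPKM in Colo800 and 10.47 FPKM in A375 with ETV1-sh2 and at 91.5 and 8.61 FPKM with ETV1-sh1, against 116.5 and 12.6 FPKM with scrambled, and did not pass with either hairpin. S100B, a marker shared with neural crest cells, fell by 1.06 on the log2(FPKM + 1) scale with ETV1-sh2 (adjusted p = 0.0195 in limma). With ETV1-sh1 it fell by 1.70 (adjusted p = 0.0197 in limma). S100B was the only 1 of 6 melanocytic markers tested to pass with either hairpin. Of all genes 9% fell with ETV1-sh2 and 1.51% with ETV1-sh1. SOX10 was at -0.41 with ETV1-sh2 and -0.50 with ETV1-sh1. TYR in Colo800 was at 14.8 FPKM with ETV1-sh2 and 84.9 FPKM with ETV1-sh1, against 34.4 FPKM with scrambled. The part of these changes in the results on MYC was not tested. Libraries held 10418 to 11013 genes at 1 FPKM or more, and their depth relative to A375 scrambled, read from the steps between low values, lay between 0.769 and 2.10.

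MYC (ENSG00000136997) was the member that fell furthest with ETV1-sh2. With ETV1-sh2 it was at 12.4 FPKM in Colo800 and 1.76 FPKM in A375, with ETV1-sh1 at 38.4 and 6.38 FPKM, and with scrambled at 52.7 and 14.8 FPKM. In each line ETV1-sh2 gave the lowest value and ETV1-sh1 lay between it and scrambled, with 23.5% and 11.9% of the scrambled level left by ETV1-sh2 and 72.8% and 43.1% left by ETV1-sh1. Across lines the groups overlapped, because every Colo800 library but ETV1-sh2 exceeded every A375 library and Colo800 with ETV1-sh2 was close to A375 scrambled.

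Tested with limma over all 11129 genes at a mean of 1 FPKM or more, MYC fell by 2.26 on the log2(FPKM + 1) scale with ETV1-sh2 (SE 0.218, 95% interval -2.79 to -1.73, Benjamini-Hochberg adjusted p = 0.00806), the 42nd smallest p. ETV1-sh1 gave a log2 difference of -0.77 from scrambled, with the same SE, that did not pass (adjusted p = 0.136 in limma). MYC was lower with ETV1-sh2 than with ETV1-sh1 by a log2 difference of -1.49 (adjusted p = 0.0126 in limma). Over both hairpins, with the line as a block, the difference was -1.52 (SE 0.557, adjusted p = 0.441 in limma). In that fit the gap between the hairpins counts as spread, and ETV1 itself did not pass. P-values here measure only the spread between these 6 libraries, since the labels do not tell if a line's libraries came from separate cultures, and in bulk RNA fewer cells of a type and less RNA per cell cannot be told apart. The MYC call for ETV1-sh2 against scrambled held without any 1 library (adjusted p from 0.00115 to 0.0422), while that for ETV1-sh2 against ETV1-sh1 was lost without either ETV1-sh1 library (0.0996 and 0.102).

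**Figure D1:**
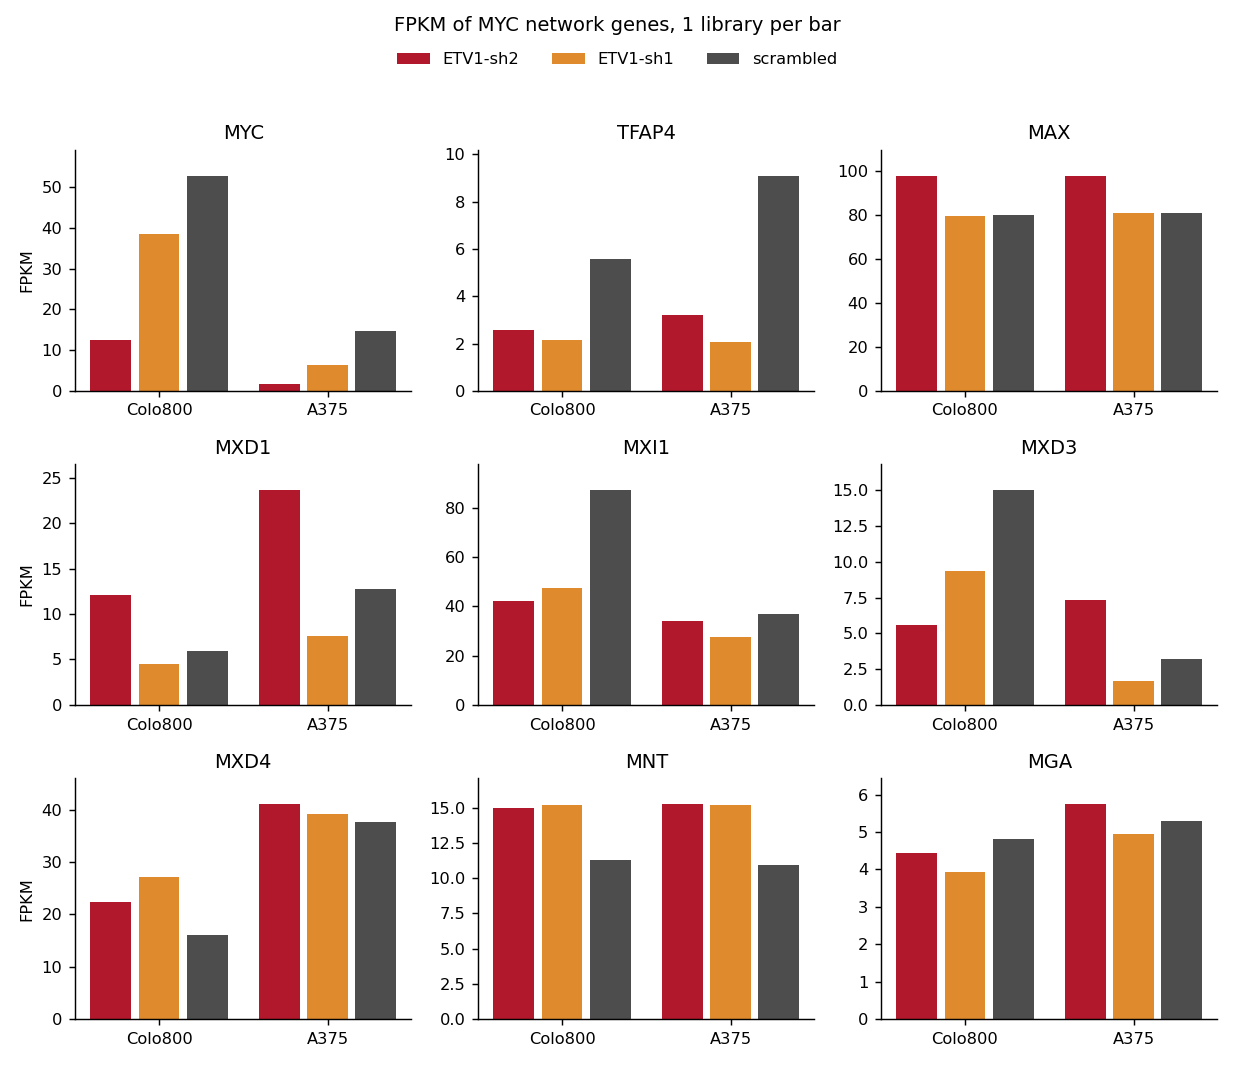
FPKM of the 9 genes, with 1 bar per library, Colo800 left of A375 and the ETV1-sh2, ETV1-sh1 and scrambled hairpins in that order within a line. MYC stands at 12.4, 38.4 and 52.7 FPKM in Colo800 and 1.76, 6.38 and 14.8 FPKM in A375, while TFAP4 is at 3.23 FPKM or less in all 4 ETV1 hairpin libraries and at 5.57 or more in both scrambled ones.

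TFAP4 (ENSG00000090447) was lower with both hairpins, at a similar level in each. It was at 2.57 FPKM in Colo800 and 3.23 FPKM in A375 with ETV1-sh2, and at 2.13 and 2.07 FPKM with ETV1-sh1, against 5.57 and 9.07 FPKM with scrambled. The 4 hairpin libraries did not overlap the 2 scrambled ones. With ETV1-sh2 TFAP4 fell by 1.07 in log2 units (SE 0.240, adjusted p = 0.0336 in limma) and with ETV1-sh1 it fell by 1.39 (adjusted p = 0.0461), and the hairpins differed by 0.33 (95% interval -0.26 to 0.91, adjusted p = 0.382). Unlike for MYC, the larger residual of ETV1 went with the lower TFAP4 value in each line. The limma call for ETV1-sh2 was lost without any 1 of 5 libraries (adjusted p from 0.0583 to 0.239), and that for ETV1-sh1 without either scrambled or either ETV1-sh1 library (0.134 to 0.288).

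MAX (ENSG00000125952), which both sides of the network need, had the highest level of the 9 on average. With ETV1-sh2 it stood at 97.5 FPKM in Colo800 and 97.3 FPKM in A375, with ETV1-sh1 at 79.4 and 80.9 FPKM, and with scrambled at 79.9 and 80.8 FPKM. ETV1-sh2 was above the other two in both lines, 1.23 and 1.20 times ETV1-sh1. The log2 difference between ETV1-sh2 and scrambled was 0.27 (95% interval -0.09 to 0.64, adjusted p = 0.237 in limma), and that between ETV1-sh1 and scrambled was 0.00.

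MXD1 (ENSG00000059728), known as MAD1 and linked to differentiation and exit from the cell cycle, moved oppositely to MYC with ETV1-sh2. It was at 12.1 FPKM in Colo800 and 23.7 FPKM in A375 with ETV1-sh2 and at 4.53 and 7.56 FPKM with ETV1-sh1, against 5.92 and 12.7 FPKM with scrambled. In each line ETV1-sh2 gave the highest value and ETV1-sh1 the lowest, although Colo800 with ETV1-sh2 lay below A375 scrambled. MXD1 rose with ETV1-sh2 by 0.88 on the log2 scale against scrambled (SE 0.192, adjusted p = 0.0308 in limma) and by 1.39 against ETV1-sh1 (adjusted p = 0.0113), and with ETV1-sh1 its difference from scrambled was -0.50 (adjusted p = 0.233). The call against scrambled was lost when any 1 library was left out (adjusted p from 0.0501 to 0.187 in limma), the differences then being 0.77 to 0.99. The call against ETV1-sh1 was lost without either ETV1-sh1 library (0.0790 and 0.101).

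MXI1 (ENSG00000119950), an MXD-family repressor first found as a MAX interactor, was the most abundant repressor in Colo800. It was at 42.3 FPKM in Colo800 and 33.9 FPKM in A375 with ETV1-sh2 and at 47.5 and 27.5 FPKM with ETV1-sh1, against 87.2 and 36.9 FPKM with scrambled. All 4 hairpin libraries lay below the scrambled library of their line, yet the groups overlapped, and neither hairpin passed (log2 -0.57 and -0.64 for ETV1-sh2 and ETV1-sh1, adjusted p = 0.141 and 0.225 in limma).

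MXD3 (ENSG00000213347), which unlike the other MXD genes is known to be expressed in dividing cells, had opposite signs in the lines with ETV1-sh2. In Colo800 it was at 5.60 FPKM with ETV1-sh2 and 9.33 FPKM with ETV1-sh1, against 15.0 FPKM with scrambled. In A375 it was at 7.35 FPKM with ETV1-sh2 and 1.69 FPKM with ETV1-sh1, against 3.17 FPKM with scrambled. ETV1-sh2 was thus the lowest of the Colo800 libraries (log2 -1.28 from scrambled) and the highest of the A375 ones (1.00), and ETV1-sh1 gave -0.63 in each. The difference of the pooled hairpin effect between lines was -1.14 (SE 1.06, adjusted p = 1 in limma). It averages the hairpins, so the opposite signs with ETV1-sh2 alone were not tested. With ETV1-sh2 the fit over both lines gave -0.14 (SE 0.556).

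MXD4 (ENSG00000123933), another MXD-family repressor, was at 22.4 FPKM in Colo800 and 41.1 FPKM in A375 with ETV1-sh2 and at 27.2 and 39.3 FPKM with ETV1-sh1, against 15.97 and 37.7 FPKM with scrambled. Each hairpin library lay above the scrambled one of its line, by 0.06 to 0.73 on the log2 scale, and neither hairpin passed in limma (0.29 with ETV1-sh2, adjusted p = 0.352, and 0.40 with ETV1-sh1, adjusted p = 0.364).

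MNT (ENSG00000070444), a MAX-binding repressor known to be expressed in both dividing and resting cells, had the most even hairpin differences of the 9. It was at 15.0 FPKM in Colo800 and 15.3 FPKM in A375 with ETV1-sh2 and at 15.2 FPKM in both with ETV1-sh1, against 11.3 and 11.0 FPKM with scrambled. No hairpin library overlapped a scrambled one, and the 4 log2 differences ran from 0.38 to 0.44 (mean 0.41, SD 0.0300, n = 4). They did not pass in limma, where the spread is shared with other genes (SE 0.197, adjusted p = 0.500 over both hairpins). MGA (ENSG00000174197), a large protein that also carries a T-box domain, was at 4.44 FPKM in Colo800 and 5.75 FPKM in A375 with ETV1-sh2 and at 3.92 and 4.95 FPKM with ETV1-sh1, against 4.82 and 5.29 FPKM with scrambled. MGA's groups overlapped, and its log2 differences were 0.00 with ETV1-sh2 and -0.16 with ETV1-sh1.

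The window from 250 bases before to 50 after the start of transcription was available from RefSeq (GRCh38.p14) for 7 members, all but MYC and TFAP4, in 12 windows. The MYC and MAX E-box, CACGTG, which reads the same on both strands, was searched there because these genes belong to the network, a choice made after the data were seen. It was in 2 of the 7, MNT and MXD4, and in 8.77% of 27305 genes and 7.26% of 35116 windows. MNT and MXD4 were also the 2 members higher in all 4 hairpin libraries, as were 19.7% of all genes tested, and neither passed in limma. Any part of the motif in their levels was not tested. A motif match is a description of the letters and not a site of binding. Their 250 bases before the start are shown 5′ to 3′ on the gene's strand, the minus strand, with the E-box in capitals, at chr17:2401061-2401310 for MNT and chr4:2262110-2262359 for MXD4.
MNT: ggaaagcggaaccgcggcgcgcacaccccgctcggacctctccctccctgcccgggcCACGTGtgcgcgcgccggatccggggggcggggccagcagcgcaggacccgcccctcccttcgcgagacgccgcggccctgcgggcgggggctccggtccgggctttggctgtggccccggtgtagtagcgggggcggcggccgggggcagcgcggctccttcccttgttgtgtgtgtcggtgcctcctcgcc
MXD4: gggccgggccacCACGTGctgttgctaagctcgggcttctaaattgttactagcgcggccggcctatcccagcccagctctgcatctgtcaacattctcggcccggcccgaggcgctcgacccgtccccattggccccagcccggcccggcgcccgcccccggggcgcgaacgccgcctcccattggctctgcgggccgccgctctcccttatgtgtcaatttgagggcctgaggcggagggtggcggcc
The E-box began 193 bases before the start in MNT and 238 bases before it in MXD4. CAGCTG, the E-box form that TFAP4 prefers and also the same on both strands, was in the windows of MGA and MXD3, against 21.1% of genes. CCGGAA, an ETS-type core searched on both strands, was in those of MAX, MGA, MXD3 and MXI1, against 20.1% of genes.

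Counted together, 2 of the 9 members fell (MYC and TFAP4) and 1 rose (MXD1) with ETV1-sh2 against scrambled, where 9% of all genes tested fell and 7.73% rose (limma, adjusted p under 0.05). With ETV1-sh1 against scrambled 1 member, TFAP4, fell and 0 rose, where 1.51% of genes fell and 0.773% rose. Between hairpins, ETV1-sh2 was lower than ETV1-sh1 in 1 member (MYC) and higher in 1 (MXD1), with 6.91% and 6.82% of genes in those directions. Over both hairpins 0 members passed and 0% of all genes did (smallest adjusted p = 0.135 in limma, with 567 genes lower and 637 higher at an unadjusted p under 0.05). The gap between the hairpins counts as spread in that fit, and ETV1 itself did not pass (-2.81, SE 0.938, adjusted p = 0.4135 in limma). The difference of the hairpin effect between lines passed in 0 members and 0% of genes (smallest adjusted p = 1, with 24 lower and 42 higher unadjusted). Each line has 1 scrambled library, so the spread there comes only from the gap between the hairpins (SE 2.06 for ETV1 and 1.22 for MYC). That fit therefore cannot decide if lines differ in genes on which the hairpins differ.

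By direction alone, all 4 hairpin libraries were below their scrambled library for 3 members (MYC, TFAP4 and MXI1), as for 16.8% of genes, and above it for 2 (MNT and MXD4), as for 19.7%. Hairpin and scrambled libraries did not overlap for 1 member on the lower side (TFAP4; 4.39% of genes) and 1 on the higher side (MNT; 6.45% of genes). Within a line no test was made, and calls were at least 2-fold on the log2(FPKM + 1) scale, which understates changes of low genes. Within Colo800, 0 members passed that fold with both hairpins, against 0.908% of genes lower and 0.899% higher. Within A375, MYC and TFAP4 were at least 2-fold lower with both and 0 members were higher, against 1.63% and 0.952% of genes. MYC in A375 had log2 differences of -2.52 with ETV1-sh2 and -1.10 with ETV1-sh1, and TFAP4 -1.25 and -1.71. The Colo800 differences were -2.005 and -0.45 for MYC and -0.88 and -1.07 for TFAP4, so on that scale each gene missed the fold with 1 hairpin there. In plain FPKM TFAP4 in Colo800 was at 46.2% of scrambled with ETV1-sh2 and 38.3% with ETV1-sh1, past 2-fold with both, and with a pseudocount of 0.1 it was the 1 member called.

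**Figure D2:**
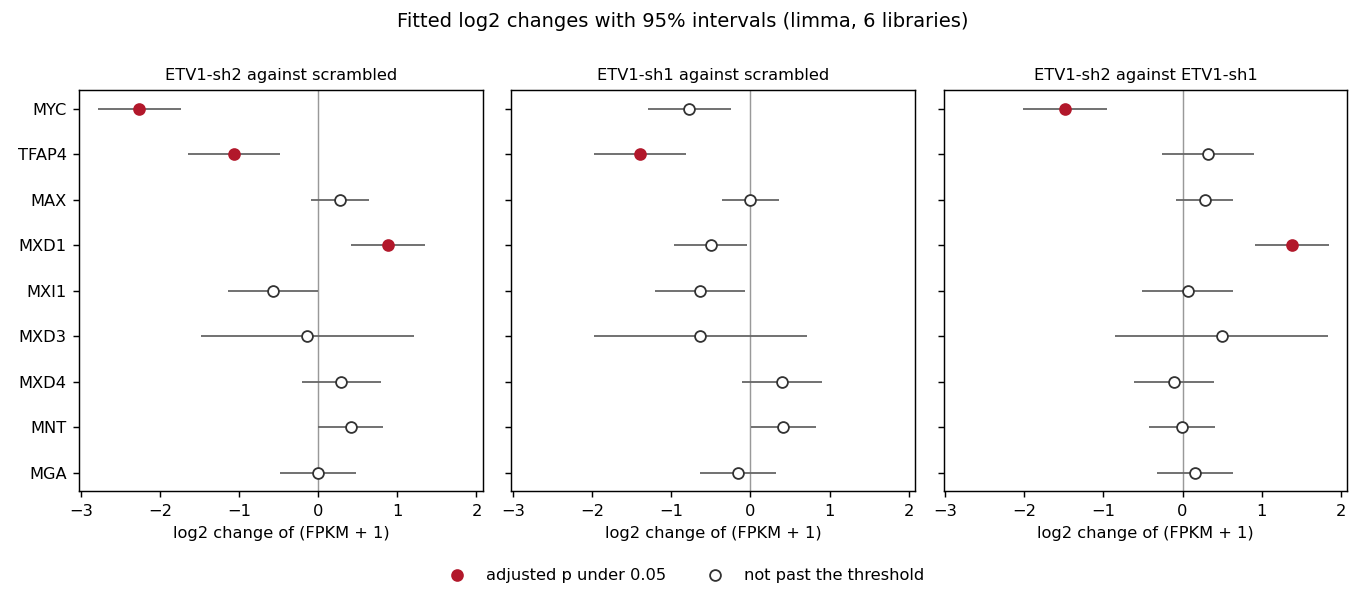
Fitted log2 changes of (FPKM + 1) with 95% intervals for the 9 genes, from limma over 6 libraries, for ETV1-sh2 against scrambled, ETV1-sh1 against scrambled and ETV1-sh2 against ETV1-sh1; filled points passed an adjusted p of 0.05. MYC is at -2.26 and MXD1 at 0.88 in the ETV1-sh2 panel, and TFAP4 passes with both hairpins at -1.07 and -1.39.

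Between the lines 4 of the 9 members passed, MYC, MXI1, MXD1 and MXD4, each with the same direction at every hairpin. Colo800 had more MYC than A375 at every hairpin, by 2.15 on the log2 scale (SE 0.178, adjusted p = 0.000326 in limma), and more MXI1 (0.77, adjusted p = 0.0160). MXD1 and MXD4 were lower in Colo800 than in A375 (-0.84 and -0.85, adjusted p = 0.00505 and 0.00662). These 2 higher and 2 lower members stand beside 31.8% of all genes higher and 25.3% lower. MXD3 was 1.18 higher without passing (adjusted p = 0.0642 in limma), and it passed at 1.94 when either ETV1-sh2 library was left out. With ETV1-sh2 MXD3 was lower in Colo800 than in A375, at 5.60 against 7.35 FPKM. MXI1 lost its call without either scrambled or either ETV1-sh1 library (adjusted p from 0.0729 to 0.0938 in limma). In the scrambled libraries alone, MYC was 3.56-fold, MXI1 2.36-fold and MXD3 4.73-fold higher in Colo800 than in A375, and MXD4 was at 0.424 and MXD1 at 0.466 of the A375 level, in plain FPKM. On the log2(FPKM + 1) scale, where MXD1 was at -0.99, 3 members were at least 2-fold higher and 1 (MXD4) was lower, against 17.2% and 13.4% of genes, and MAX and MNT differed there by -0.01 and 0.04 on the log2 scale.

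Set against the repressors, MYC RNA was a different share of the pool in each line. MYC made up 10.8% of the summed FPKM of MYC and the 6 MXD, MNT and MGA genes in Colo800 with ETV1-sh2, 26.3% with ETV1-sh1 and 27.3% with scrambled. In A375 it made up 1.36% with ETV1-sh2, 6.22% with ETV1-sh1 and 12.2% with scrambled. Colo800 with ETV1-sh2 therefore had about the share of A375 with scrambled. The repressor sum was 8.23, 2.81 and 2.66 times MYC in Colo800 with ETV1-sh2, ETV1-sh1 and scrambled, and 72.3, 15.1 and 7.22 times MYC in A375. It moved less than MYC did, being 101.8, 107.8 and 140.2 FPKM in Colo800 and 127.0, 96.2 and 106.8 FPKM in A375.

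Within the MXD family MXD1 made up 14.7% of the summed FPKM in Colo800 with ETV1-sh2, against 5.11% with ETV1-sh1 and 4.77% with scrambled. In A375 it made up 22.3%, 9.94% and 14.1% in the same order of hairpins. MXI1 was 51.4%, 53.6% and 70.3% of that sum in Colo800 and 32.0%, 36.2% and 40.8% in A375. By mean log2 level over the 6 libraries the members ran MAX, MXI1, MXD4, MNT, MYC, MXD1, MXD3, MGA and TFAP4. MXD4 above MNT was the only pair of neighbours in that order whose ranges did not overlap.

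**Figure D3:**
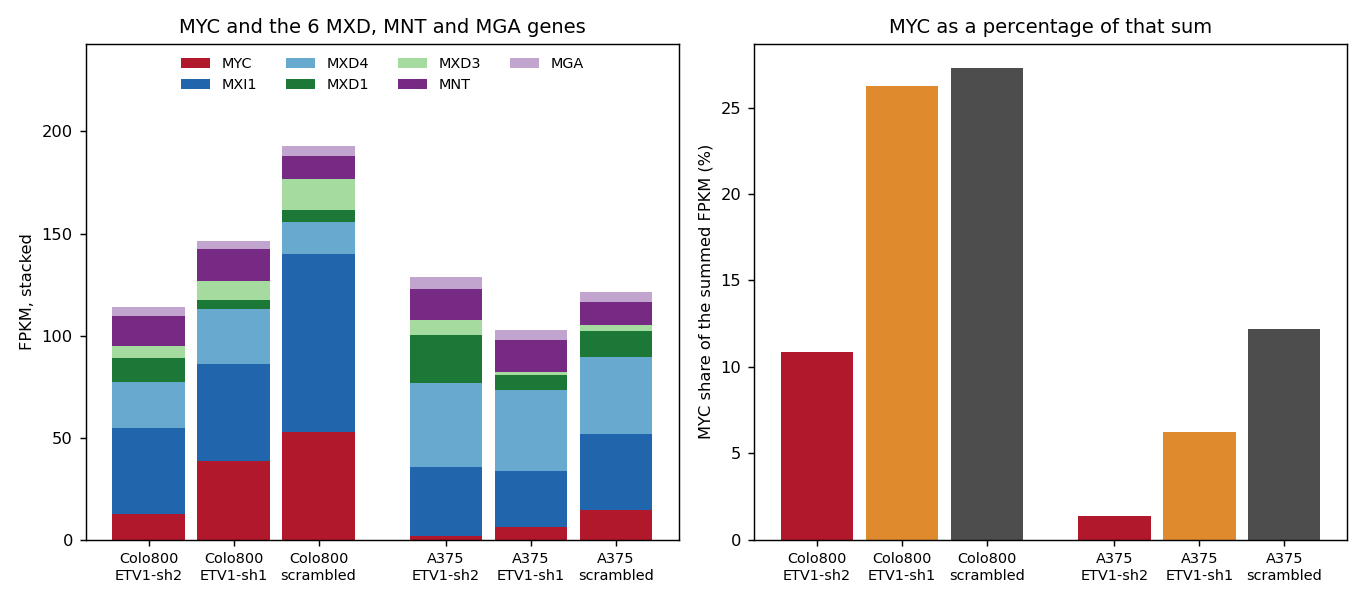
Left, FPKM of MYC and the 6 repressor genes stacked by library; right, MYC as a percentage of that sum, with Colo800 left of A375 and ETV1-sh2, ETV1-sh1 and scrambled in order within a line. The MYC share is 10.8%, 26.3% and 27.3% in Colo800 and 1.36%, 6.22% and 12.2% in A375.

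Genes long known to be raised by MYC were mostly lower with ETV1-sh2. Of 38 such genes tested, 18 fell with ETV1-sh2 against scrambled and 0 rose, where 9% of all genes fell and 7.73% rose. This list, like those below, was chosen with earlier results of these data known, and the shares of all genes were not matched to it for expression level. In the list 37 had a negative difference, and the median was -0.76 where all genes had 0.05. LDHA, the lactate dehydrogenase of glycolysis, fell by 1.48 on the log2 scale (adjusted p = 0.00806 in limma). ODC1, which makes the polyamine precursor putrescine, fell by 1.44 (adjusted p = 0.0113), and PAICS, of purine synthesis, fell by 1.38 (adjusted p = 0.0130). In Colo800 ODC1 was at 21.7 FPKM with ETV1-sh2 and 75.0 FPKM with ETV1-sh1, against 67.4 FPKM with scrambled. In A375 it was at 14.3 FPKM with ETV1-sh2 and 34.8 FPKM with ETV1-sh1, against 36.6 FPKM with scrambled, so ETV1-sh2 alone stood apart from scrambled in both lines.

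With ETV1-sh1, 1 of the 38 fell, against 1.51% of all genes: PTMA, which encodes prothymosin alpha, fell by 1.64 with ETV1-sh1 (adjusted p = 0.0263 in limma) and by 1.34 with ETV1-sh2 (adjusted p = 0.0151). The list's median with ETV1-sh1 was -0.22, with 30 negative, and over both hairpins 38 of 38 were negative with a median of -0.55 and 0 passed. ETV1-sh2 was below ETV1-sh1 in 7 of the 38, against 6.91% of all genes. Colo800 exceeded A375 in 17 and was below it in 5, against 31.8% and 25.3% of all genes. The count of 18 came to 0 without A375 scrambled and 2 without Colo800 scrambled, and lay between 13 and 15 without any other 1 library.

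Of 11 genes known to be held down by MYC, 4 rose with ETV1-sh2 and 1 fell, against 7.73% and 9% of all genes. The cyclin-dependent kinase inhibitor CDKN1B rose by 0.98, the secreted chaperone CLU by 1.67 (adjusted p = 0.00926 in limma), the growth factor receptor PDGFRB by 1.25 and the transcription factor CEBPD by 1.67. GADD45A, a DNA damage response gene, fell by 1.40 (adjusted p = 0.0130). CEBPD was at 10.4 FPKM in Colo800 and 19.5 FPKM in A375 with ETV1-sh2 and at 1.26 and 2.23 FPKM with ETV1-sh1, against 4.58 and 3.12 FPKM with scrambled. CEBPD was thus highest in the 2 ETV1-sh2 libraries and, in each line, lowest with ETV1-sh1. The list's median with ETV1-sh2 was 0.22, with 6 of 11 positive. With ETV1-sh1 CLU alone rose, by 1.29 (adjusted p = 0.0372), against 0.773% of all genes, and the count of 4 with ETV1-sh2 was 1 without A375 scrambled and 2 without Colo800 scrambled or either ETV1-sh1 library. PDGFRB is also a fibroblast marker, and 3 of 4 fibroblast markers tested rose with ETV1-sh2, against 7.73% of all genes. These were COL1A1 (by 1.88), PDGFRB (by 1.25) and LUM (by 0.92), while PDGFRA, at 0.47, did not pass. COL1A2, too low to test, was at 1.32 FPKM in Colo800 with ETV1-sh2 and 0.178 FPKM with ETV1-sh1, against 1.78 FPKM with scrambled. In every A375 library COL1A2 was below 1 FPKM. The 6 fibroblast markers summed to 13.1 to 36.0 FPKM in hairpin libraries and 11.6 to 13.4 FPKM in scrambled ones. DCN was at 4.08 FPKM in A375 with ETV1-sh2 and below 1 FPKM in every other library, and the part of these markers in the results was not tested.

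**Figure D4:**
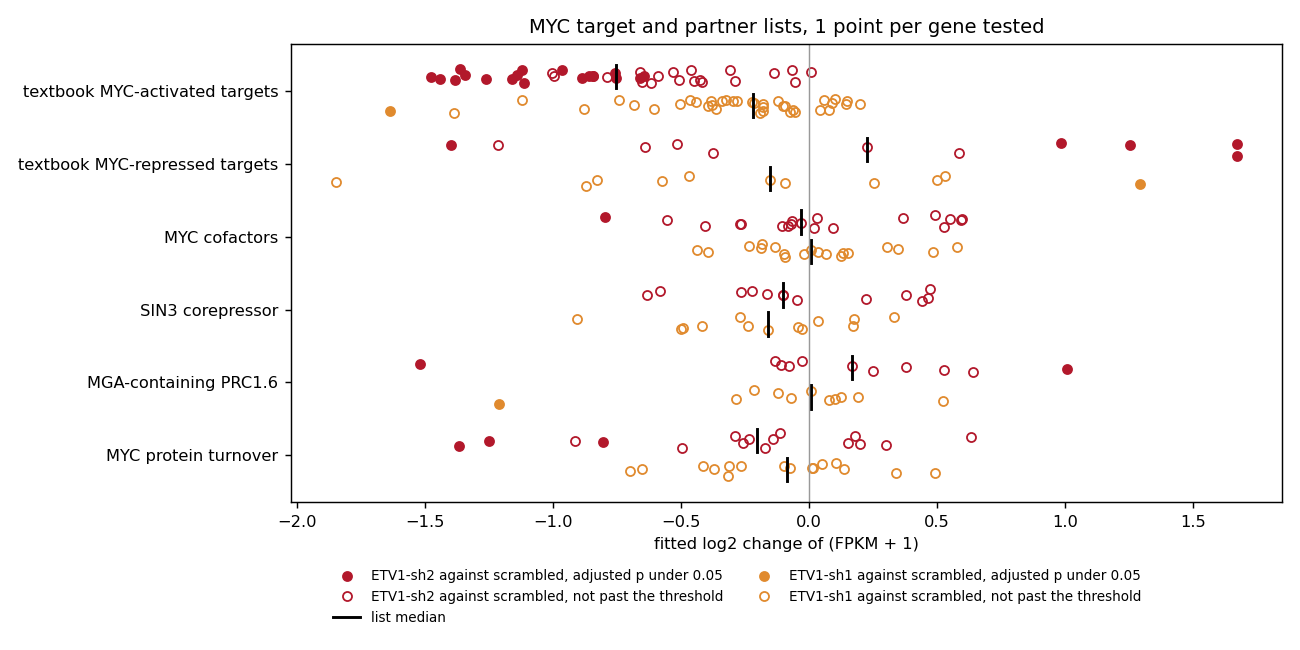
Fitted log2 change of (FPKM + 1) for each gene tested in 6 lists, 1 row of points for ETV1-sh2 against scrambled above 1 for ETV1-sh1; filled points passed an adjusted p of 0.05 and the black tick is the list's median. The median of the MYC-activated genes is -0.76 with ETV1-sh2 and -0.22 with ETV1-sh1, and that of the MYC cofactors lies within 0.05 of 0 with each.

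Among 19 MYC cofactors 1 fell with ETV1-sh2, against 9% of all genes: the ATPase RUVBL1 of chromatin remodelling complexes (-0.80, adjusted p = 0.0491 in limma). None of the 19 rose, against 7.73% of all genes, and the list's median was -0.03. The acetyltransferase KAT5 (0.59) and the elongation factors PAF1 (0.53) and SUPT5H (0.55) did not pass. Of 13 SIN3 corepressor genes 0 passed with either hairpin against scrambled in limma. With ETV1-sh2 9% of all genes fell and 7.73% rose, and with ETV1-sh1 1.51% fell and 0.773% rose. The nearest of the 13 with ETV1-sh2 was NCOR1 (-0.58, adjusted p = 0.0584 in limma), with SAP30 at -0.63, SIN3B at 0.47 and SAP18 at 0.44.

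Of 11 PRC1.6 genes, which work with MGA, the ubiquitin ligase RING1 rose by 1.01 with ETV1-sh2 (adjusted p = 0.0209 in limma) and the heterochromatin protein gene CBX3 fell by 1.52 (adjusted p = 0.0130), against 7.73% of all genes that rose and 9% that fell. RYBP (0.64) and EHMT1 (0.52) did not pass. With ETV1-sh1 only TFDP1 passed, at -1.21 (adjusted p = 0.0281 in limma), against 1.51% of all genes that fell.

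Genes that set how long MYC protein lasts were tested as 16 of a list of 17, in which KIAA1524 and CIP2A name the same gene. With ETV1-sh2, 3 fell, against 9% of all genes: SET (-1.25) and KIAA1524 (-0.81), both inhibitors of the phosphatase PP2A, and the mitotic kinase gene PLK1 (-1.37), with adjusted p of 0.0126, 0.0297 and 0.0478 in limma. PPP2R1A, the PP2A scaffold subunit, was at 0.63 (adjusted p = 0.0510 in limma). With ETV1-sh1 0 of the 16 passed, against 1.51% of all genes that fell and 0.773% that rose.

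From a list of 8 symbols of some other bHLH-zipper genes, 6 were in the table and 4 were expressed enough to test. USF2, an E-box factor that does not need MAX, rose by 1.30 with ETV1-sh2 (adjusted p = 0.0196 in limma), as did 7.73% of all genes. USF2 was at 108.8 FPKM in Colo800 and 138.8 FPKM in A375 with ETV1-sh2 and at 95.02 and 102.6 FPKM with ETV1-sh1, against 58.6 and 41.3 FPKM with scrambled. Every hairpin library was thus above both scrambled ones, as for 6.45% of all genes, with 0.99 for ETV1-sh1 (adjusted p = 0.0907 in limma). MLX (0.24), MLXIP (-0.13) and USF1 (0.10) did not pass, nor did TXNIP (0.46) and ARRDC4 (0.12), outputs of the MLX arm. Of 4 TFAP4 targets tested 0 passed with ETV1-sh2 in limma, against 9% of all genes that fell and 7.73% that rose. VIM was at -0.97 (adjusted p = 0.0601 in limma), CD44 at -0.22, SNAI1 at -0.15 and CDKN1A at 0.22.

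Across the 6 libraries, which share 2 lines and 3 hairpins, the genes whose log2 pattern was most like that of MYC were SNRPG (Pearson r = 0.999), the glycolytic enzyme gene ENO1 (0.998), MID1IP1 (0.998), EPS8 (0.997) and DSCC1 (0.997). For TFAP4 they were MTX3 (0.986), NACC1 (0.980), C15orf41 (0.976), PFDN2 (0.970) and BUB3 (0.968). ENO1, for one, was at 761 FPKM in Colo800 and 365 FPKM in A375 with ETV1-sh2 and at 1308 and 546 FPKM with ETV1-sh1, against 1463 and 790 FPKM with scrambled. Between members, r was -0.94 for MNT and TFAP4, -0.91 for MXI1 and MXD4 and -0.83 for MYC and MXD1. It was 0.85 for MXI1 and MXD3, 0.79 for MYC and MXI1 and 0.23 for MYC and TFAP4. These values describe 6 libraries and carry no test.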

How the data were processed

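The deposited values are FPKM per gene in 6 libraries, which the authors made on hg19 using STAR 2.4, Cufflinks 2.2.1 and Cuffnorm, per the submitters' processing notes. Annotation, filters, scaling method and strand handling were not stated in the sources used here, so overlapping genes and near copies cannot be told apart. FPKM carries no absolute depth, and its relative value came from the commonest ratio between low genes. In libraries other than A375 scrambled, 6.97% to 9.72% of low genes stood at that ratio.

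Values were taken as log2(FPKM + 1), which understates changes of low genes, in the 11129 genes with a mean of at least 1 FPKM. limma 3.58.1 in R 4.3.3 (lmFit, eBayes with a variance trend) was fitted to all 6 libraries, p-values were adjusted by Benjamini-Hochberg, and 0.05 was the threshold. Pooled hairpins were fitted with the line as a block (3 residual degrees of freedom), each hairpin and the lines with line and 3 hairpin levels (2), and the difference between lines with 4 means, of each line with and without knockdown (2). The fit of ETV1-sh2 against scrambled was checked on data simulated with the same spread for every gene. All comparisons with scrambled share the same 2 scrambled libraries. Within a line the call was a 2-fold change, with no test.

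Members and lists were chosen with earlier results of these data known. All members are named, and from each list up to 4 tested genes with the largest moderated statistic for ETV1-sh2. TFDP1, CLU and PTMA for ETV1-sh1 and ENO1 in full were added after their values were seen. CEBPD and the markers MLANA, TYR, TYRP1, DCN and COL1A2 are given outside that rule. Marker lists, as sums in hairpin and in scrambled libraries, gave 402 to 896 and 688 to 1297 FPKM for melanocytes, 6.64 to 13.4 and 5.43 to 21.6 for keratinocytes and 1.33 to 10.4 and 2.41 to 2.94 for endothelium. Alternatives were a pseudocount of 0.1, no filter, a mean of 5 FPKM, median-ratio and quantile scaling, no variance trend, other blocks and leaving out each library. One marker list is not reported here.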

Additional observations from a re-analysis of the deposited data

How the results depend on the processing

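Of 645 values of single members from the fits, 576 kept direction and call, 33 lost and 5 gained a call and 31 changed sign. With no filter on low values, 0 genes and 0 members passed for ETV1-sh2 against scrambled, ETV1-sh1 against scrambled and ETV1-sh2 against ETV1-sh1 (1862, 254 and 1528 genes as reported). Fitted with scrambled alone, ETV1-sh2 gave 890 genes and 1 member and ETV1-sh1 805 genes. For ETV1-sh1 against scrambled, 0 members passed with quantile scaling or with no variance trend (119 genes), and 0 at a mean of 5 FPKM, a filter that leaves TFAP4 untested (mean 4.11 FPKM). A pseudocount of 0.1 gave 481 genes within A375 and 394 genes and 1 member within Colo800, against 287, 201 and 0. The cause of the other changes was not tested. With all 6 libraries kept, signs changed only in values near 0. MGA with ETV1-sh2 was at -0.000447 with a pseudocount of 0.1, -0.028 with median-ratio and -0.054 with quantile scaling. In those scalings MAX with ETV1-sh1 was at 0.0086 and 0.049, and MNT in Colo800 against A375 at -0.069 and -0.078. The difference of the MAX effect between lines was at -0.032 and -0.049 there. Leaving out each library in turn gave 83 to 1974 genes and 1 to 3 members for ETV1-sh2, 0 to 834 genes and 0 to 1 member for ETV1-sh1, and 0 to 1739 genes and 0 to 3 members for ETV1-sh2 against ETV1-sh1. Its log2 ranges were, for ETV1-sh2, MGA -0.089 to 0.090 and MXD3 -1.28 to 1.00; for ETV1-sh1, MAX -0.015 to 0.0066; for ETV1-sh2 against ETV1-sh1, MNT -0.029 to 0.014, MXD3 -0.65 to 1.63, MXD4 -0.36 to 0.15 and MXI1 -0.28 to 0.40. Over both hairpins they were MGA -0.17 to 0.0097, MXD1 -0.12 to 0.53 and MXD3 -0.95 to 0.18, for the difference between lines MAX -0.14 to 0.15, MXD1 -0.55 to 0.98 and MYC -0.20 to 1.36, and for Colo800 against A375 MNT -0.012 to 0.019. With a library left out, values that changed sign were not all near 0. MXD3 with ETV1-sh2 was at 1.00 without the Colo800 ETV1-sh2 library and at -1.28 without the A375 one. The difference of the hairpin effect between lines could not be estimated without either scrambled library. Counts of MYC targets were rerun under each setting, a check added after the data were seen: the 18 activated genes came to 0 with no filter and to 14 to 23 under the other settings, and the 4 repressed ones to 0 with no filter and to 3 or 4. The line as a block sets each hairpin library against the scrambled one of its line. No paired analysis by replicate number was possible because each line and hairpin has 1 library.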
